A study of Mus musculus with 8 samples.

Results

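The genes described here are the core histone and linker histone cluster genes of the mouse. They were taken by symbol, as every annotated gene named H1f, H2ac, H2bc, H3c or H4c followed by a digit, which gave 70 of 49943 genes. By class they were 11 linker histone (H1) genes, 19 H2A genes, 16 H2B genes, 12 H3 genes and 12 H4 genes. A cluster on chromosome 13 held 55 of them, a cluster on chromosome 3 held 10, and 5 linker histone genes lay elsewhere. The 3 pseudogenes H2ac14, H2ac5-ps and H1f11-ps were kept as members.

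Sites of HMGA2, γ-H2AX (H2AXS139ph in the labels) and ATM were mapped by chromatin immunoprecipitation and sequencing (ChIP-seq) in mouse embryonic fibroblasts (MEF). The 3 libraries used, HMGA2, γ-H2AX and ATM, all came from Hmga2 wt cells of the C57BL/6 strain, taken at E15.5 and at passages 2 to 4, with 1 library per antibody. Libraries from Hmga2 Ko cells and input libraries were not analysed here, so no difference between genotypes is given, and with no replicate there is no p-value. The deposited lists held 152834 HMGA2 peaks, 124947 γ-H2AX peaks and 119570 ATM peaks, each with a score by the authors (-10 times the log10 of the peak's p, with 20 at their threshold). Peak lists hold no expression, so the fibroblast label could not be checked against marker genes. Intervals given below are 95% intervals and cover counting error only.

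Most genes of these clusters are replication-dependent: they are short, mostly without introns, are transcribed in S phase under the coactivator NPAT, and give mRNAs that end in a stem-loop in place of a poly(A) tail. H2A and H2B genes often lie head to head and share a promoter, and linker histones bind where DNA enters and leaves the nucleosome. HMGA2 is a chromatin protein whose AT hooks hold the minor groove of AT-rich DNA. ATM is a kinase that phosphorylates the histone H2AX near DNA breaks, and γ-H2AX is that phosphorylated form.

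Transcription start sites were annotated for 62 of the 70 genes (63 start sites, since H2bc6 had 2), and 11 of the 63 promoter sequences, from 250 bases before the start site to 50 after it, were touched by a peak. HMGA2 peaks touched 1 promoter (1.59%, Wilson interval 0.281% to 8.46%, against 1.46% of all 32851 promoters). γ-H2AX peaks touched 6 (9.52%, 4.44% to 19.3%, against 3.53%) and ATM peaks touched 4 (6.35%, 2.5% to 15.2%, against 1.81%). The promoters of H2bc13 and H2ac13 were touched by the same ATM peak, so the ATM interval is too narrow to that extent. No histone promoter was touched by peaks of more than 1 antibody. The share of all promoters touched by more than 1 antibody was not counted. With 1, 6 and 4 promoters touched, this absence cannot be read as a trait of histone promoters. The 250 bases before the start site are shown for 6 of these genes, chosen to show the HMGA2 peak, ATM peaks at H2A genes and γ-H2AX peaks at genes of 3 classes, from RefSeq on GRCm38.p6, whose coordinates are those of mm10. Capitals mark the bases under the peak, and each runs 5′ to 3′ towards the gene.
H2ac4: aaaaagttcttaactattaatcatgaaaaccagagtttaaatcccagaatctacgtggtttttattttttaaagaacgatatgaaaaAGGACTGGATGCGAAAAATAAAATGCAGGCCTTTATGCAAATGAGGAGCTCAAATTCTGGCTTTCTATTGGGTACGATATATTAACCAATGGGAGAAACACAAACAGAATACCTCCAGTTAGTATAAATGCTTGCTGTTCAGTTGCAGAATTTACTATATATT
H2ac13: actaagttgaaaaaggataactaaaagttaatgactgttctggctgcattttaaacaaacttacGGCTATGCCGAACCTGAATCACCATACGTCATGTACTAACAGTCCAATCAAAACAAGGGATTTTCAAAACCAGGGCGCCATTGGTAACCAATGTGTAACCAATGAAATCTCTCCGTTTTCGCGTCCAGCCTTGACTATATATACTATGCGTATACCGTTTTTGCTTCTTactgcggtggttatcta
H2ac24: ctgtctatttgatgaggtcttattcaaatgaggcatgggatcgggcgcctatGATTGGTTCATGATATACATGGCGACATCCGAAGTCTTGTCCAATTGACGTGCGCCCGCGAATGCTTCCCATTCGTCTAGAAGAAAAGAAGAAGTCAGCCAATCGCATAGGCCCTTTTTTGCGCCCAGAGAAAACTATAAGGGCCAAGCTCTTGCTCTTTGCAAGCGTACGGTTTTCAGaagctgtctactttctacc
H1f5: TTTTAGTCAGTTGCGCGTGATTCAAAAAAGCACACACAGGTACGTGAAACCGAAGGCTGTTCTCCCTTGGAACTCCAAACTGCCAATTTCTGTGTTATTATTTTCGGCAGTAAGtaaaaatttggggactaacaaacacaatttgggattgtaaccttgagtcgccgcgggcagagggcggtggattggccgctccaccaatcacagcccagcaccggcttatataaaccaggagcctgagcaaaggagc
H2ac10: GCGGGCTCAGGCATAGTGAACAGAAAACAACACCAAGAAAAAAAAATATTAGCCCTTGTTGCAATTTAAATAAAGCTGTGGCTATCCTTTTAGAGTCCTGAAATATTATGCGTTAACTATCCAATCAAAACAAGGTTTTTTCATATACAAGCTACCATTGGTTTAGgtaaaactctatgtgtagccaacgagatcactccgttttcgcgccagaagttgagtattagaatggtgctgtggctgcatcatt
H2bc18: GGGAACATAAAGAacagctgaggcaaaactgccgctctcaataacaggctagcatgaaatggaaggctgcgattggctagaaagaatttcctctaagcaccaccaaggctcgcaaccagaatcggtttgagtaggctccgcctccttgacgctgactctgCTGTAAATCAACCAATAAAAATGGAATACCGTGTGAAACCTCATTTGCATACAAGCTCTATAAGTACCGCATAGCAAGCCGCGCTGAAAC

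The H2ac4 promoter (chr13:23750838-23751087, plus strand) held the only HMGA2 peak over a histone start site, with 163 of its 250 bases under the peak. H2ac13 (chr13:21716162-21716411, plus strand) and H2ac24 (chr13:21833476-21833725, minus strand) had 169 and 179 bases under ATM peaks. H1f5 (chr13:21780626-21780875, minus strand), H2ac10 (chr13:23533625-23533874, plus strand) and H2bc18 (chr3:96269450-96269699, plus strand) had 114, 166 and 103 bases under γ-H2AX peaks. At H1f5 the peak lay over the distal part of the promoter, at H2bc18 most of it lay next to the start site, and at H2ac10 it lay over the distal part and ended 85 bp before the start site. The bases under the HMGA2 peak of H2ac4 were 63.8% A or T, below the 67.6% of all its 250 bases shown. That promoter ranked 1 of 63 histone promoters for A and T content (66.7% over its 300 bases, median 54.3% over the 63 and 47.3% over all promoters). The γ-H2AX bases of H2ac10 were 65.1% A or T, against 61.6% of its 250 bases. The ATM bases of H2ac24 were 52%, against 52.8%.

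Sequence elements known from histone promoters were searched in the 300-base windows on both strands, as exact letters. TATAAA was in 34 of the 63 histone promoters (54%, against 13.6% of all promoters). CCAAT was in 52 (82.5%, against 37.4%), including all 17 H2A, all 15 H2B and all 10 H3 promoters and 3 of 11 H4 promoters. The octamer ATTTGCAT, which POU2F1 binds, was in 13 (20.6%, against 1.74%), of which 6 were H2A and 7 were H2B promoters. The H1 box AAACACA, a linker histone element, was in 9 (14.3%, against 7.18%), with 5 among 10 linker histone promoters. None of the 4 contains another. Of the shown promoters, H2ac4 held a TATAAA 41 bases before the start site, a CCAAT at 78 bases and an octamer at 129 bases on the other strand, all under the HMGA2 peak. In H2bc18 an octamer 48 bases before the start site and a CCAAT at 79 bases lay under the γ-H2AX peaks. In H1f5 the TATAAA at 28 bases and the AAACACA at 117 bases lay outside the γ-H2AX peak. A match of letters is a description and not evidence of a bound factor.

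γ-H2AX peaks were in the body or within 1 kb of either end of 26 of the 70 histone genes (37.1%, Wilson interval 26.8% to 48.9%), against 42.2% of all annotated genes. HMGA2 peaks were there at 10 genes (14.3%, 7.95% to 24.3%), against 38.8% of all genes, and ATM peaks at 12 (17.1%, 10.1% to 27.6%), against 39.7%. Inside the gene bodies alone there were HMGA2 peaks in 5 genes (7.14%, against 33.1% of all genes), γ-H2AX peaks in 9 (12.9%, against 36.4%) and ATM peaks in 7 (10%, against 34.3%). The histone genes are short, with a median length of 494.5 bp, against 5956 bp for all genes, so a window around them covers less DNA. Against all genes no longer than the longest histone gene, the γ-H2AX share of 37.1% stood against 32.6%, the HMGA2 share of 14.3% against 28.8% and the ATM share of 17.1% against 29.5%.

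Beside genes of like length the γ-H2AX share was the one that differed most. Among genes of at most 1 kb, γ-H2AX peaks were in or within 1 kb of 22 of 61 histone genes (36.1%, 25.2% to 48.6%), against 11.2% of all 12419 such genes, many of which are pseudogenes or small RNA genes. For HMGA2 the shares were 6 of 61 histone genes (9.84%, 4.59% to 19.8%) and 12.2% of all such genes. For ATM they were 7 of 61 histone genes (11.5%, 5.67% to 21.8%) and 10.6%. The γ-H2AX interval lay above the share of all short genes, and the HMGA2 and ATM intervals held it. In the bodies of the 61 short histone genes the counts were 6 for γ-H2AX (9.84%, 4.59% to 19.8%, against 2.54% of all short genes), 1 for HMGA2 (1.64%, against 2.29%) and 2 for ATM (3.28%, against 2.24%). Within 5 kb they were 48 for γ-H2AX (78.7%, 66.9% to 87.1%, against 36.9%), 37 for HMGA2 (60.7%, 48.1% to 71.9%, against 40.7%) and 23 for ATM (37.7%, against 37.9%). Neighbouring histone genes can share a peak, so the 61 genes are not independent and the intervals are too narrow to that extent.

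Counting each base and each peak once gave the same picture for γ-H2AX. The merged windows of 1 kb around the 70 genes covered 204 kb and held 29 γ-H2AX peak centres, which is 142 per Mb (Poisson interval 95.2 to 204), against 54.1 per Mb in the merged windows of all genes. They held 15 HMGA2 centres (73.6 per Mb, 41.2 to 121, against 58.1 per Mb) and 13 ATM centres (63.8 per Mb, 33.9 to 109, against 46.3 per Mb). With windows of 5 kb the γ-H2AX density at histone genes was 103 per Mb (73.9 to 140, against 52.9 per Mb for all genes). For HMGA2 it was 67.8 per Mb (44.7 to 98.6, against 57 per Mb). For ATM it was 50.2 per Mb (30.7 to 77.6, against 46 per Mb). The HMGA2 and ATM intervals held the background. Within 5 kb, γ-H2AX peaks were at 53 histone genes (75.7%, 64.5% to 84.2%, against 58.5% of all genes), HMGA2 peaks at 41 (58.6%, 46.9% to 69.4%, against 56.2%) and ATM peaks at 28 (40%, 29.3% to 51.7%, against 57.2%). Among protein-coding genes only, the γ-H2AX share within 5 kb was 74.6% of 67 histone genes (63.1% to 83.5%), against 70.3%, so that its interval held the background. For HMGA2 it was 56.7%, against 65.1%, and for ATM 38.8%, against 67.3%. Among peaks that scored at least 30 the γ-H2AX share within 5 kb was the lower one, at 7.14% of histone genes, against 14.8% of all genes. The 4 genes with no peak of any antibody within 5 kb (5.71%, against 15.4% of all genes and 10.5% of protein-coding genes) were H2ac21, H1f8, H4c6 and H1f7.

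Start sites gave a comparison that does not depend on gene length. Within 1 kb of a start site, γ-H2AX peaks were at 18 of 63 histone start sites (28.6%, 18.9% to 40.7%), against 14.8% of all 32851 start sites. HMGA2 peaks were at 4 (6.35%, against 9.07%) and ATM peaks at 6 (9.52%, against 8.86%). Within 250 bp the histone counts were 1 for HMGA2 (1.59%, against 1.97%), 6 for γ-H2AX (9.52%, against 4.59%) and 4 for ATM (6.35%, against 2.58%). Within 5 kb γ-H2AX peaks were at 46 histone start sites (73%, 61% to 82.4%, against 43.6%), HMGA2 peaks at 33 (52.4%, 40.3% to 64.2%, against 37.1%) and ATM peaks at 20 (31.7%, 21.6% to 44%, against 35.4%). The γ-H2AX and HMGA2 intervals at 5 kb both lay above the share of all start sites. Neighbouring start sites can share a peak, so these intervals are too narrow to that extent. With each peak counted once in merged 5 kb gene windows, the HMGA2 density was 67.8 per Mb (44.7 to 98.6). That interval held the 57 per Mb of all genes.

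**Figure D1:**
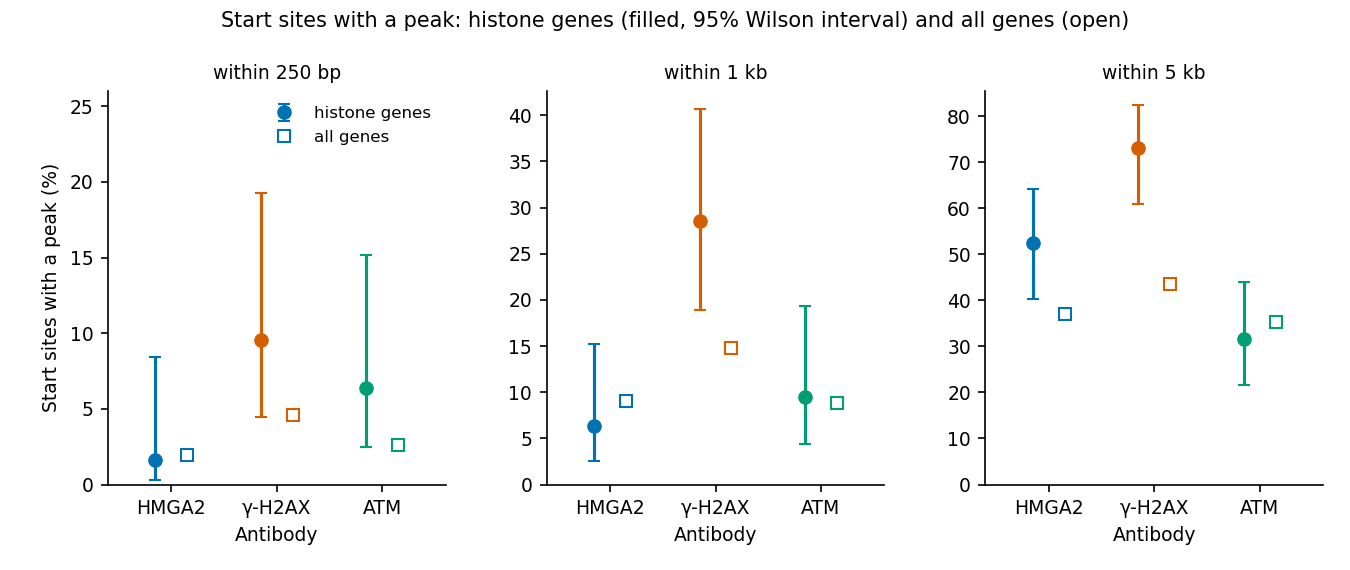
Share of start sites with a peak (y axis, percent) by antibody (x axis), within 250 bp, 1 kb and 5 kb, with a separate y scale in each panel. Filled points with 95% Wilson intervals are the 63 histone start sites and open squares are all 32851 start sites. The γ-H2AX interval lies above the square at 1 kb and at 5 kb, and the HMGA2 interval at 5 kb. Neighbouring start sites can share a peak, which makes the intervals too narrow to that extent.

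Per Mb of merged start-site windows of 1 kb, there were 179 γ-H2AX peak centres at histone genes (18 centres, Poisson interval 106 to 283), against 71.8 at all start sites. For HMGA2 the densities were 39.7 per Mb (4 centres, 10.8 to 102) at histone genes, against 43.7 at all start sites, and for ATM they were 49.7 per Mb (5 centres, 16.1 to 116), against 41.9. In bins of 1 kb, γ-H2AX centres were most frequent just upstream, where 12 centres gave 19.0 per 100 histone start sites (9.84 to 33.3), against 7.71 per 100 start sites of all genes. The γ-H2AX bin 1 to 2 kb downstream was close, at 15.9 (7.61 to 29.2), against 6.99. The highest HMGA2 bin lay 3 to 4 kb downstream, with 15.9 centres per 100 histone start sites (7.61 to 29.2), against 5.01. Both top bins were picked after their values were seen, which their intervals do not allow for. A peak near several start sites counts at each. The γ-H2AX density rested in part on the largest block of the chromosome 13 cluster. Without that block 6 centres were left at histone start sites, or 117 per Mb, against 71.8 at all start sites. No interval was computed for those 6 centres, so an excess outside the block was not established. Among γ-H2AX peaks that scored at least 30 there were 2 centres, or 19.9 per Mb, against 9.61 at all start sites. HMGA2 also had 2 centres, or 19.9 per Mb, among peaks that scored at least 30, against 4.77 at all start sites, where over all its peaks the histone density had been the lower one.

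**Figure D2:**
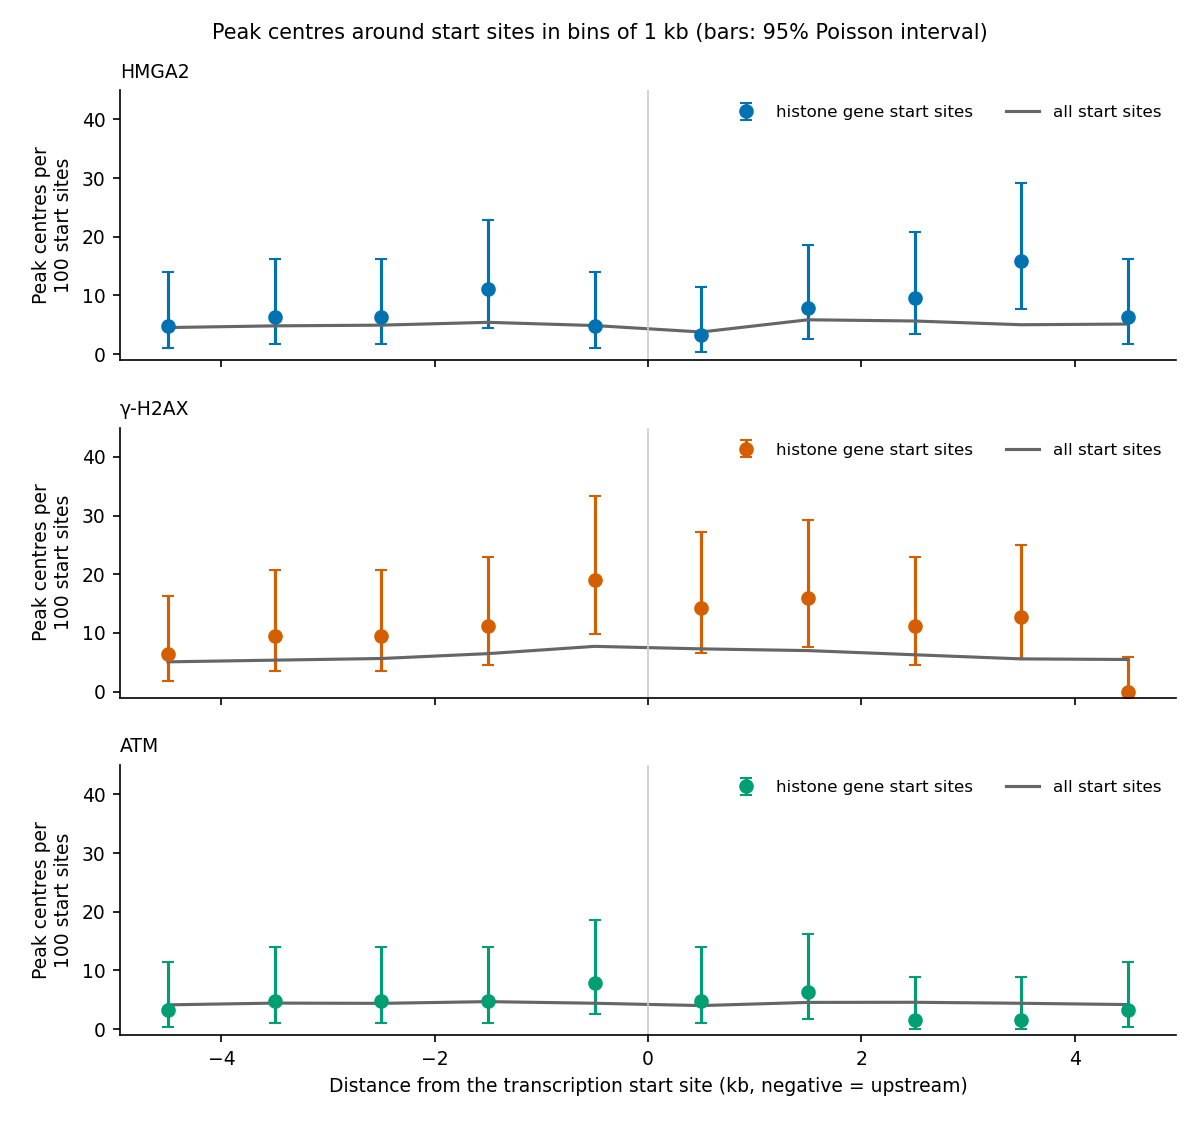
Peak centres per 100 start sites (y axis) in bins of 1 kb by distance from the start site (x axis, kb, negative upstream). Points with 95% Poisson intervals are the 63 histone start sites, where a peak between neighbouring genes counts at each, and lines are all start sites; the γ-H2AX point just upstream of the start sites is at 19.0.

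Most peaks near histone genes scored close to the authors' threshold, and so did most peaks of the whole lists. The 30 distinct γ-H2AX peaks within 1 kb had a median score of 23.5, against 23.6 over the whole γ-H2AX list. Their maximum was 43.1, and 10% of them scored at least 30, against 10.3% of that list. The 15 HMGA2 peaks had a higher median than their list, 26.07 against 23.75. Among them 4 scored at least 30 (26.7%, against 11.6% of the HMGA2 list), with a maximum of 38.2. None of the 13 ATM peaks did, against 10.2% of the ATM list, and their maximum was 29.8. Their median of 24.6 was above the 23.6 of the ATM list. By position relative to the 62 stranded genes, γ-H2AX peaks within 1 kb were upstream of 13 genes, in the body of 8 and downstream of 10. HMGA2 peaks were upstream of 2, in the body of 4 and downstream of 4, and ATM peaks were upstream of 4, in the body of 6 and downstream of 2. Positions were not counted for all genes, and bodies and flanks differ in length, so no preference can be read from these counts.

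**Figure D3:**
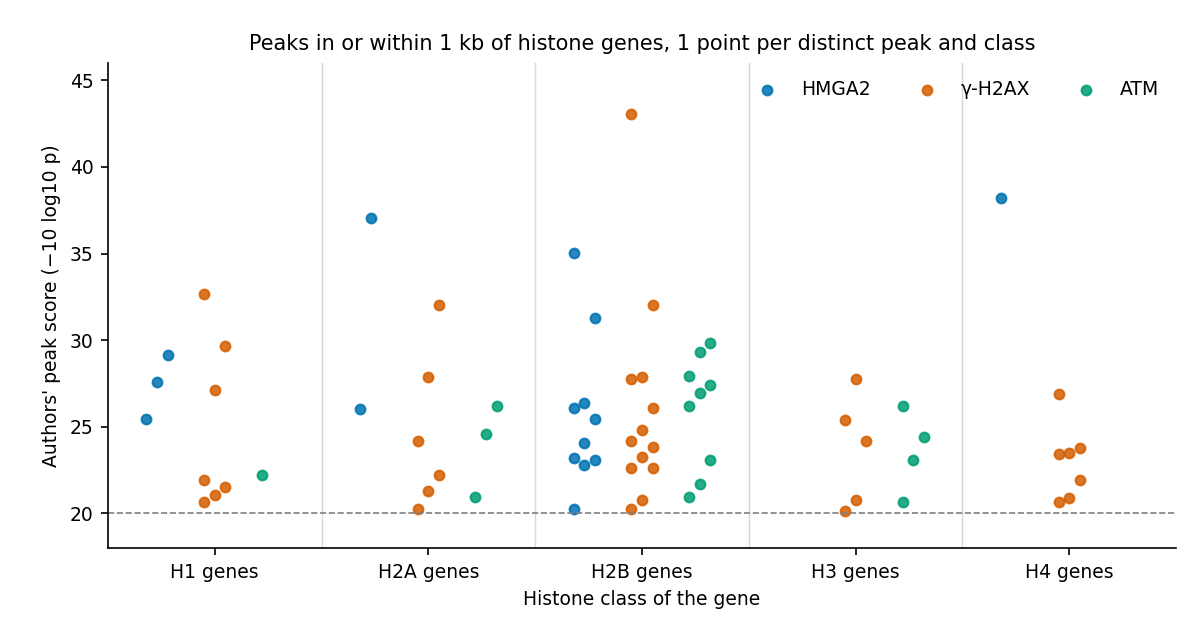
The authors' score (y axis, -10 log10 p) of each distinct peak in or within 1 kb of a histone gene, by class of the gene (x axis) and antibody (colour); the dashed line is their threshold of 20. The 12 H3 genes have no HMGA2 peak and the 12 H4 genes no ATM peak, against 12.2% and 10.6% of all genes up to 1 kb long with one. The highest point is the γ-H2AX peak at an H2B gene with a score of 43.1.

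Beside the counts by class below, 42.2% of all genes had a γ-H2AX peak within 1 kb, 38.8% an HMGA2 peak and 39.7% an ATM peak. Of all genes up to 1 kb long the shares were 11.2%, 12.2% and 10.6%. The classes are small, and differences between them were not tested. Among the 11 linker histone genes, 6 had a γ-H2AX peak within 1 kb, 3 an HMGA2 peak and 1 an ATM peak. H1f0, the replacement linker histone of resting and differentiated cells, had γ-H2AX peaks scoring 32.7 in its body and 27.1 upstream, and an ATM peak scoring 22.2 in its body. H1f5, a replication-dependent linker histone, had the γ-H2AX peak of its promoter (score 29.7, 137 bp upstream of the gene) and an HMGA2 peak with a score of 27.6 downstream. H1f4, of the same kind, had an HMGA2 peak with a score of 25.5, 68 bp past its end, and a γ-H2AX peak with a score of 21.1, 217 bp upstream. The pseudogene H1f11-ps on chromosome 19 had HMGA2 and γ-H2AX peaks with scores of 29.1 and 21.95 that shared 87 bp. Of the germ-line linker genes, H1f6 had a γ-H2AX peak scoring 20.7 at 692 bp downstream, and H1f7 and H1f8 had no peak within 1 kb. H1f10 had a γ-H2AX peak scoring 21.5 downstream, and H1f1, H1f2 and H1f3 had no peak within 1 kb.

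Of the 19 H2A genes, whose products pair with H2B in the nucleosome, 5 had a γ-H2AX peak within 1 kb, 1 an HMGA2 peak and 2 an ATM peak. The exception for HMGA2 was H2ac4, with the promoter peak described above (chr13:23750925-23751097, score 37.1, a score reached by 3.37% of HMGA2 peaks), a further HMGA2 peak scoring 26.02 at 467 bp upstream and a γ-H2AX peak scoring 21.3 at 793 bp upstream. H2ac6 had γ-H2AX peaks scoring 32.1 downstream and 27.9 upstream. H2ac24 had the ATM peak of its promoter, with a score of 24.6. H2ac13 shared its ATM peaks (scores 20.9 and 26.2) with the H2B gene H2bc13. Among 9 head-to-head H2A and H2B pairs with 164 to 281 bp between their start sites, the H2bc13 and H2ac13 pair, 229 bp apart, was the one with a peak of any antibody between the start sites.

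The 16 H2B genes held the highest γ-H2AX and ATM scores, with γ-H2AX peaks within 1 kb of 8, HMGA2 peaks of 5 and ATM peaks of 6. At H2bc9 a γ-H2AX peak over the 3′ end of the gene (chr13:23542748-23542979) had a score of 43.1, which 1.17% of γ-H2AX peaks reached. An ATM peak with a score of 23.1 lay over the H2bc9 start site, 350 bp from it. Some other H2B genes with high scores are annotated as long genes: H2bc6 spans 37455 bp, H2bc22 14079 bp, H2bc4 8282 bp and H2bc23 3788 bp. The short gene H2bc18 (493 bp) had a γ-H2AX score of 27.8. The part of gene length in these scores was not tested. H2bc22 held ATM peaks scoring 29.8, 28.0 and 27.4 and an HMGA2 peak scoring 26.4. H2bc23 held HMGA2 and ATM peaks scoring 31.3 and 29.3. H2bc4 held an HMGA2 peak scoring 35.0 and an ATM peak scoring 27.0 and shared the γ-H2AX peak of 32.1 with H2ac6. H2bc6 held 5 HMGA2 peaks (highest 25.5), 3 γ-H2AX peaks (highest 26.1) and 1 ATM peak (21.7) in its body or within 1 kb.

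Of the 12 H3 genes none had an HMGA2 peak within 1 kb, while γ-H2AX peaks lay at 3 and ATM peaks at 3. With an HMGA2 peak at 12.2% of all genes up to 1 kb long, 12 genes are too few to read the absence as a trait of the class. H3c13 had 3 γ-H2AX peaks, scoring 25.4 upstream and 27.8 and 20.8 downstream, and the last 2 were also those of its neighbour H2bc18. ATM peaks lay at H3c6 (24.4 in the body and 20.7 downstream), H3c10 (26.2 upstream) and H3c7 (23.1, shared with H2bc9). Of the 12 H4 genes 4 had a γ-H2AX peak, 1 an HMGA2 peak and none an ATM peak, which 10.6% of all genes up to 1 kb long had. H4c2 had the highest HMGA2 score of all the histone genes, 38.2 (chr13:23757596-23757886), 210 bp past its end, and γ-H2AX peaks scoring 23.75 in its body and 21.95 downstream. H4c3 had 3 γ-H2AX peaks with scores of 20.7 to 23.5, and H4c1 had 1, with a score of 26.9.

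Peaks of at least 2 antibodies were within 1 kb of 12 histone genes (17.1%, against 37.4% of all genes), and 37 histone genes had no peak of any of the 3 (52.9%, against 37.7% of all genes). Within 5 kb it was 43 histone genes (61.4%, against 57.6% of all genes). Within 1 kb, all 3 antibodies had peaks at H2bc13, H2bc6 and H2bc4 (4.29%, against 20.9% of all genes). The other 9 genes were H1f5, H2bc22, H2bc23, H2bc9, H1f4, H2ac4, H4c2, H1f0 and H1f11-ps. At most of these genes the peaks were apart: 285 bp lay between the HMGA2 and ATM peaks of H2bc23, and 1653 bp between the HMGA2 and γ-H2AX peaks of H1f5. Overlapping peaks of 2 antibodies were found at H4c2 (HMGA2 and γ-H2AX, 170 bp shared), H2bc13 (HMGA2 and γ-H2AX, 166 bp) and H1f11-ps. Over the whole lists, overlaps with γ-H2AX were found for 2.67% of HMGA2 peaks, and overlaps with ATM for 2.42% of HMGA2 peaks and 2.68% of γ-H2AX peaks.

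The cluster on chromosome 13 (mm10, chr13:21715711-23934913, 2.22 Mb) as a whole was close to the rest of the genome in its peak density. It held 122 HMGA2 peaks, or 55 per Mb (Poisson interval 45.7 to 65.6), against 63.5 per Mb over chromosome 13 and 57.4 per Mb over all chromosomes. γ-H2AX peaks numbered 111 (50 per Mb, 41.1 to 60.2, against 52.3 and 47 per Mb) and ATM peaks 113 (50.9 per Mb, 42 to 61.2, against 49.4 and 44.9 per Mb). The histone genes lie in 3 blocks of 18, 5 and 32 genes. The longer stretch between blocks 2 and 3 holds 75 vomeronasal receptor genes and pseudogenes, 44 tRNA genes and no histone gene. With 5 kb on each side, block 3 held 34 γ-H2AX peaks (82.2 per Mb, 56.9 to 115), 31 HMGA2 peaks (74.9 per Mb, 50.9 to 106) and 20 ATM peaks (48.3 per Mb, 29.5 to 74.6). In the stretch of 1480 kb between blocks 2 and 3 the densities were 31.1 per Mb for γ-H2AX (22.8 to 41.5), 44.7 per Mb for HMGA2 and 48.7 per Mb for ATM. The γ-H2AX intervals of block 3 and of that stretch did not overlap. A high density was also seen where no histone gene lies, in the 192 kb between blocks 1 and 2, which hold 30 tRNA genes: 104 γ-H2AX peaks per Mb (63.7 to 161), 88.7 HMGA2 peaks per Mb and 57.4 ATM peaks per Mb. Block 1 held 11 ATM peaks (86.1 per Mb, 43 to 154), 9 HMGA2 peaks and 9 γ-H2AX peaks (70.4 per Mb each).

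The cluster on chromosome 3 (chr3:96219885-96270192, 50.3 kb) held 6 γ-H2AX peaks (119 per Mb, 43.8 to 260, against 54.9 per Mb over chromosome 3), 2 HMGA2 peaks and 1 ATM peak. Within 1 kb of its 10 genes there were no HMGA2 or ATM peaks, and the γ-H2AX peaks lay at the neighbours H3c13 and H2bc18. Of all genes up to 1 kb long, 12.2% had an HMGA2 peak there and 10.6% an ATM peak. So 10 genes are too few to read the absence as a trait of the cluster. Many core histone genes of 1 class have near-identical coding sequences, in both clusters, and reads from them may not be assignable to 1 copy, so that peaks in gene bodies are uncertain on chromosome 13 as well as on chromosome 3. How multiply mapping reads were treated is not given in the sources used here, and its part in the counts was not tested.

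**Figure D4:**
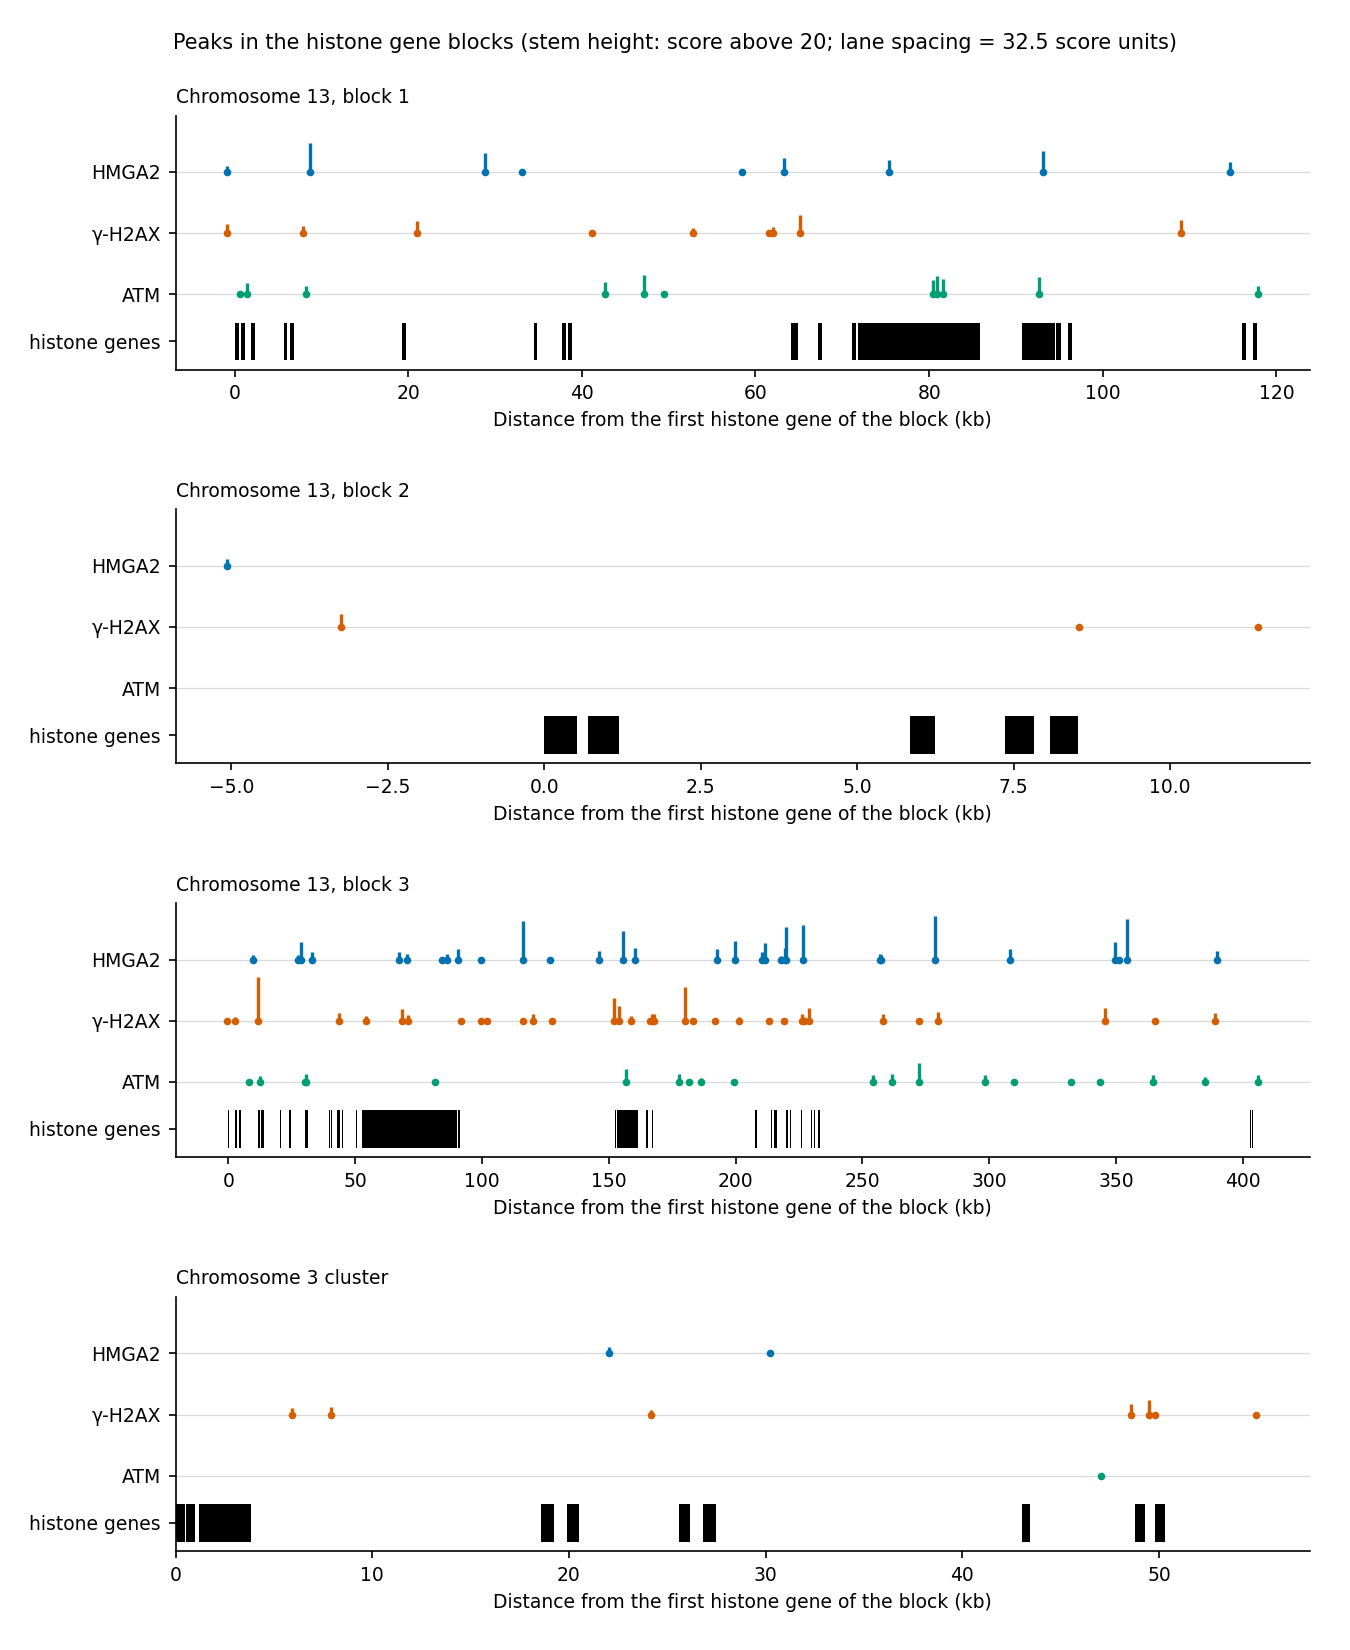
Peaks of the 3 antibodies in the 3 blocks of the chromosome 13 cluster and in the chromosome 3 cluster, by distance from the first histone gene (x axis, kb). Dots mark peak centres, stems rise with the score above 20, and black boxes are histone genes drawn to scale; block 3 holds 34 γ-H2AX, 31 HMGA2 and 20 ATM peaks.

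The authors also deposited lists of promoter regions for γ-H2AX and for ATM, without values. Regions of the γ-H2AX list lay in or within 1 kb of 14 histone genes (20%, Wilson interval 12.3% to 30.8%), against 5.79% of all genes and 10.9% of protein-coding genes. They were 12 of the 2220 regions, and each had the bounds of a γ-H2AX peak to within 1 bp. They lay at H1f0, H1f4, H1f5, H2ac4, H2ac7, H2ac10, H2ac11, H2bc7, H2bc11, H2bc18, H3c4, H3c13, H4c3 and H4c8. Regions of the ATM list lay at 6 histone genes (8.57%, 3.99% to 17.5%), against 2.32% of all genes and 4.27% of protein-coding genes. These were H2bc13, H2ac13, H2ac24, H2bc9, H3c7 and H1f4. The ATM region near H1f4 (chr13:23623164-23623443) coincided with no peak of the ATM list.

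Genes that supply or replace the clustered histones were longer than them. Of 30 genes for histone gene transcription, mRNA processing and histone chaperones (median length 24913 bp, against 17169 bp for all protein-coding genes), 21 had an HMGA2 peak within 1 kb (70%, Wilson interval 52.1% to 83.3%, against 53.4% of all protein-coding genes). γ-H2AX peaks were at 22 (73.3%, 55.6% to 85.8%, against 59.5%) and ATM peaks at 23 (76.7%, 59.1% to 88.2%, against 55.5%). The 3 shares were above those of all protein-coding genes, the ATM one beyond its counting interval, and the part of gene length in this was not tested. Zfp473, a zinc-finger protein of histone pre-mRNA processing, had an ATM peak scoring 98.0, a γ-H2AX peak scoring 40.9 and an HMGA2 peak scoring 39.8. Genes named here were those of highest score, which are often long genes. Nasp, a histone chaperone, had the highest HMGA2 score of the list, 49.5. Ice1, a subunit of the little elongation complex, had top scores of 44.4 in the γ-H2AX list, 43.7 in the HMGA2 list and 38.3 in the ATM list. Atrx, a chaperone partner for H3.3, had scores of 43.6 for γ-H2AX and 47 for ATM, Coil, the marker protein of Cajal bodies, 46.3 for ATM, and Supt16, a subunit of the FACT chaperone, 40.2 for γ-H2AX. Pou2f1, which binds the octamer, had an HMGA2 score of 41.2, and the cyclin gene Ccne2 one of 37.3.

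Of 10 genes for histone variants outside the clusters, 4 had HMGA2 peaks within 1 kb (40%, against 53.4% of all protein-coding genes), 5 had γ-H2AX peaks (50%, against 59.5%) and 5 had ATM peaks (50%, against 55.5%). H3f3b, which encodes the replacement histone H3.3, had the highest γ-H2AX score of both lists, 50.5, and no HMGA2 or ATM peak. Macroh2a1, a variant H2A with a macro domain, had an ATM peak scoring 36.5. H2ax, the gene of the histone whose phosphorylated form was precipitated, had no peak of any of the 3 antibodies within 1 kb.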

How the data were processed

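ChIP-seq peaks of HMGA2, γ-H2AX and ATM in Hmga2 wt MEF were used, from 1 library each. Per the labels, the authors called peaks with MACS14 without its model, at p 0.01 and a shift size of 30 bp, and per the submitters' processing notes Trimmomatic, Bowtie2, SAMtools and HOMER were also used, with the mm10 build. The control library, the treatment of multiply mapping reads and the depth are not given in the sources used here. The deposited value of each peak is the authors' score (-10 times the log10 of p), which served to rank and filter the peaks of 1 list at a time. The deposited promoter lists hold regions without values (unit other), and how they were chosen is not stated. The 5 other libraries of the series, a deposited histogram around HMGA2 peaks and plotting settings were not analysed here.

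Genes, 49943 on the chromosomes of the lists, came from RefSeq (GRCm38.p6), and start sites and strand from RefSeq promoter sequences. A gene was counted when a peak overlapped its window by at least 1 bp. Overlap code was tested on simulated data and gave the counts of bedtools 2.31.1; python 3.11.15, pandas 2.3.3 and scipy 1.17.1 were used. Shares have 95% Wilson intervals and densities 95% Poisson intervals. Blocks were runs of genes with gaps of at most 200 kb, and clusters runs with gaps of at most 2 Mb. No significance test was run, as there are no replicates. Genes named with values were those with peaks of 2 or 3 antibodies within 1 kb, the 10 highest-scoring per antibody, and the 5 highest-scoring per antibody over the lists of histone variants and supply genes together; other names were chosen after their values were seen. Members, lists and windows were chosen with earlier results of these data known. Of the lists of other histone genes, 10 variants and 30 supply genes were matched by symbol, and H3f5 and Symplk were not. Alternatives were stricter score limits, other windows, gene lengths and backgrounds.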

Additional observations from a re-analysis of the deposited data

How the results depend on the processing

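No paired analysis was possible because each antibody had 1 library, and leaving out a replicate was not possible for the same reason. Values follow in the order HMGA2, γ-H2AX and ATM. With peaks scoring at least 30, histone genes with a peak within 1 kb numbered 4, 4 and 0 (all genes 10.9%, 11.2% and 9.25%), within 5 kb 14, 5 and 0 (20%, 7.14% and 0%, all genes 14.6%, 14.8% and 12.4%), and in bodies 3, 2 and 0 (all genes 9.91%, 10.1% and 8.47%). Densities were 6.76, 3.6 and 3.6 per Mb in the chromosome 13 cluster (all chromosomes 6.66, 4.84 and 4.57), 0 for each in that of chromosome 3, and 19.9, 19.9 and 0 at start sites (all start sites 4.77, 9.61 and 4.18). Peaks of 2 antibodies were at 1 gene (1.43%, all genes 7.01%). With the 10000 highest-scoring peaks of each list the counts within 1 kb were 3, 4 and 0 (all genes 7.11%, 9.33% and 7.93%). Within 5 kb they were 11, 5 and 0 (15.7%, 7.14% and 0%, all genes 9.27%, 12.3% and 10.5%). In bodies they were 2, 2 and 0 (all genes 6.56%, 8.41% and 7.26%). Densities were then 4.06, 3.6 and 2.7 per Mb on chromosome 13 (all chromosomes 3.76 each), 0 for each on chromosome 3, and 19.9, 19.9 and 0 at start sites (all start sites 2.81, 7.78 and 3.39). Several comparisons turned under both stricter lists. The γ-H2AX share within 5 kb was below that of all genes, where with every peak it was above. The HMGA2 density at start sites was above that of all start sites, on 2 centres, where it was below. In the chromosome 13 cluster the HMGA2 density went from below that of all chromosomes to above, on 15 and 9 peaks. The γ-H2AX and ATM densities there went from above to below, on at most 8 peaks. With every peak, the intervals of these densities had held the background. The γ-H2AX density on chromosome 3 and the ATM density at start sites, above background with every peak, fell to 0. They had rested on 6 peaks and 5 centres, and their intervals had also held the background. No intervals are given for the stricter lists, and the cause was not tested.

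Blocks alone gave 73.2 HMGA2 and 82.1 γ-H2AX peaks per Mb on chromosome 13 (all chromosomes 57.4 and 47). A window of 500 bp gave 17 γ-H2AX genes (24.3%, all genes 39.4%), and 5 kb gave 43 genes with at least 2 antibodies (61.4%, all genes 57.6%). Windows at start sites gave 4 HMGA2 and 6 ATM genes (6.45% and 9.68%, background 9.93% and 9.67%). Members up to 1 kb long gave 6 and 7 (9.84% and 11.5%, background 12.2% and 10.6%). Without block 3 the HMGA2 density at start sites was 0 (all start sites 43.7). These start-site and length alternatives, and the start-site densities, were chosen after seeing the data. Counting by peak centre moved no result beyond its counting interval. With protein-coding genes only, or a background up to the longest member, the histone counts stayed within theirs, but 2 comparisons turned: HMGA2 within 5 kb (56.7%, against 65.1% of protein-coding genes) and γ-H2AX within 1 kb (37.1%, against 32.6% of genes up to the longest member). The lists were cut at a score of 20, so weaker binding is not seen.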
